A study of Mus musculus with 22 samples.

Results

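The 10 genes described here belong to the BCL2 family, which controls the mitochondrial pathway of apoptosis. They were listed by name as 4 genes that restrain apoptosis (Mcl1, Bcl2, Bcl2l1 and Bcl2a1b), 4 BH3-only genes that start it (Bcl2l11, Bbc3, Pmaip1 and Bid) and 2 effectors that carry it out (Bax and Bak1). All 10 were found by Ensembl identifier among the 56691 genes of both deposited count tables, and all 10 passed the filter on low counts in every comparison.

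Bulk RNA sequencing covered CD11b+ cells of mouse brain, enriched on magnetic beads, in 22 libraries from 20 pups of the outbred wild-type strain CF-1. CD11b is a surface protein of microglia, the resident macrophages of the brain, and of other myeloid cells. In hypoxic ischemic encephalopathy (HIE) pups, the dam had received lipopolysaccharide (LPS), a component of the outer membrane of Gram-negative bacteria, at 50 µg/kg on embryonic day 18, and the pups were exposed to 8 min of hypoxia on postnatal day 6 (P6). There were 4 HIE and 4 control pups on P7 and 4 HIE, 4 control and 4 hypoxia pups on P14. Controls were given saline and room air according to the methods of the study. The hypoxia group is known from the labels only, which do not say what its dams received. The P7 controls carry the day labels P8, P9, P10 and P11, 1 pup each, but were grouped as P7 after the protocol label and the methods of the study. All 4 HIE pups of P7 were labelled male, and every other group held 2 males and 2 females. Pups with the same name prefix are called a litter here. Each group held 2 litters and each litter 1 treatment, so treatment and litter cannot be separated within a litter, and pups of a litter are not fully independent. The days lie in separate tables with different depth, 70191584 to 83469067 counts per library on P7 and 29751540 to 46404123 on P14, so day and batch cannot be told apart.

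Proteins of the BCL2 family meet at the outer mitochondrial membrane. Anti-apoptotic members hold the effectors BAX and BAK in check, BH3-only proteins relieve that check or activate the effectors, and the effectors open the membrane and release cytochrome c, which leads to caspase activation. Much of this control acts on the proteins, so levels of mRNA describe the supply of each member and not its activity.

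The enriched cells carried the markers of microglia in 18 of 20 pups. The summed level of 9 microglia genes, among them P2ry12, Tmem119 and Cx3cr1, was, in counts-per-million (CPM), 16600 to 19000 in the P7 HIE pups and 16900 to 29700 CPM in the P14 pups. In the 2 controls of litter P6H63 it was 1350 to 2150 CPM, against 12900 to 14700 CPM in the 2 controls of litter P6H55. The same P6H63 pups had more RNA of astrocyte genes (4340 to 5180 CPM over 7 genes, against 1420 to 2020 CPM in P6H55) and of endothelial genes (1750 to 2260 CPM over 7 genes, against 879 to 880 CPM). Border macrophage genes were at 314 to 424 CPM in P6H63 (6 genes), 2120 to 2860 CPM in P6H55 and 1880 to 3090 CPM in the P7 HIE pups. Choroid plexus genes were higher in both control litters, at 3480 to 8840 CPM in P6H63 and 3670 to 4140 CPM in P6H55 over 6 genes, than in the P7 HIE pups, at 1120 to 2080 CPM. The part of these cell types in the P7 values of the members was not tested. Markers of lymphocytes summed to at most 3.49 CPM in any pup, so these cells were nearly absent. In bulk samples, fewer cells of a type and less RNA per cell cannot be told apart. P7 differences and differences of days among controls are therefore also given for the members without litter P6H63.

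Per kilobase of transcript, the scale on which genes can be compared, Mcl1 was the most abundant member in all 5 groups. Its level in the P7 HIE pups was 180 ± 15.0 CPM per kb (SD, n = 4), followed by Bcl2a1b at 74.5 ± 13.8, Bax at 40.3 ± 1.42, Bcl2l1 at 34.9 ± 2.06 and Bak1 at 27.5 ± 2.54 CPM per kb. The BH3-only genes were lower, from 16.8 ± 1.49 CPM per kb for Pmaip1 and 14.7 ± 0.396 for Bcl2l11 down to 4.22 ± 0.902 CPM per kb for Bbc3. Bcl2, the founding member of the family, was at 4.36 ± 0.335 CPM per kb, and its range overlapped that of Bbc3, the only neighbours in this order whose ranges met. On P14 the order was the same at the top and bottom in all 3 groups, with Mcl1 at 99.8 to 118 CPM per kb as group means and Bbc3 at 1.75 to 2.44 CPM per kb. Bcl2l1 and Bax, and Bak1 and Bcl2l11, were neighbours with overlapping ranges in each P14 group. In the P7 controls, the 4 highest members each overlapped with the next.

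**Figure D1:**
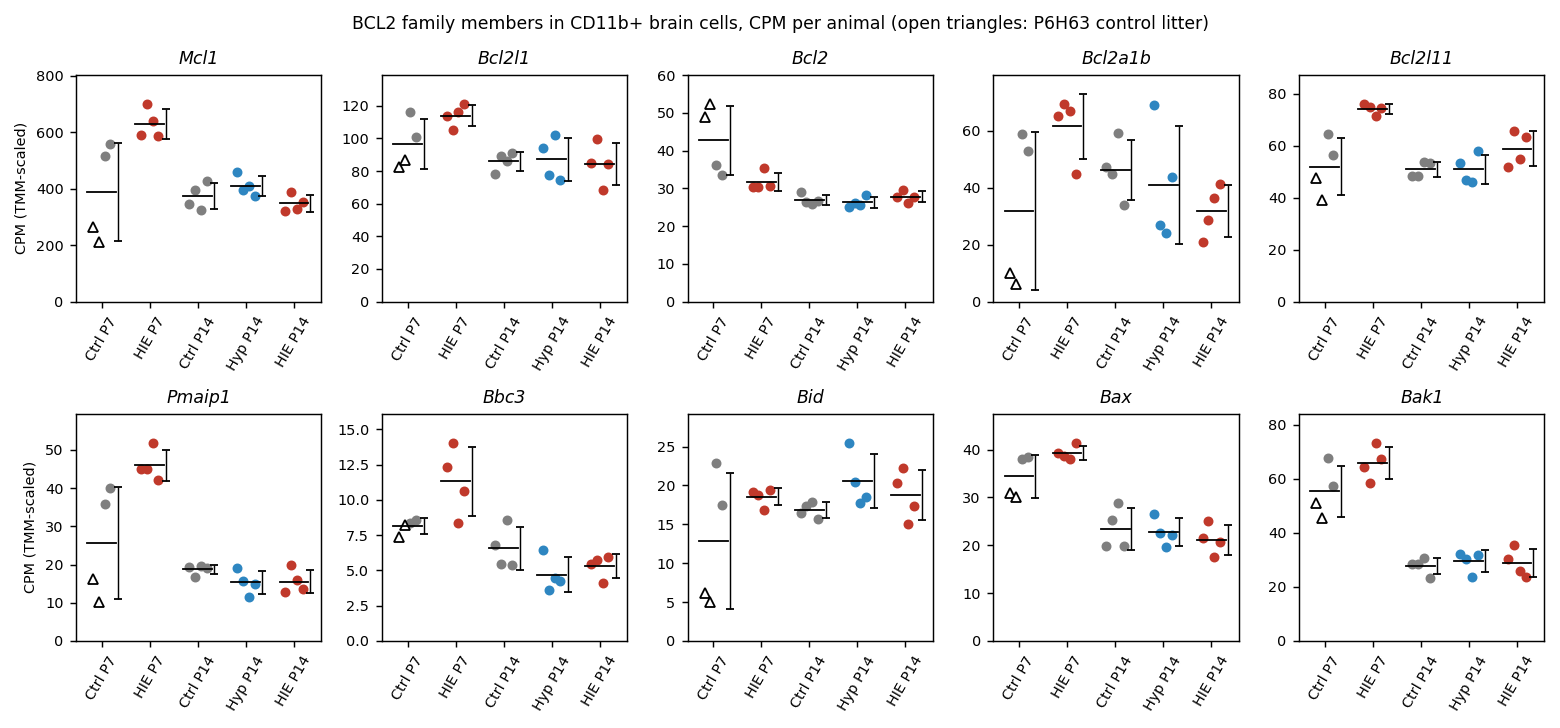
CPM scaled by the trimmed mean of M values (TMM) for each of the 10 members, 1 point per pup, with a line at the group mean and a bar of 1 SD (n = 4 per group; Ctrl is control and Hyp is hypoxia, and each vertical axis starts at 0). Open triangles mark the 2 controls of litter P6H63, which lie apart from the other 2 P7 controls for Mcl1 (211 and 266 against 516 and 557 CPM) and lie close to them for Bbc3 (7.35 and 8.24 against 8.37 and 8.60 CPM).

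The first comparison asks how HIE and control pups differed 1 day after hypoxia, on P7. No member passed the test at an adjusted p-value of 0.05 (quasi-likelihood test of edgeR, Benjamini-Hochberg adjustment over 22517 genes), where 0.0666% of all genes did. Of the members, 3 had an unadjusted p under 0.05, where 6143 of 22517 genes did. In 9 of 10 the log2 fold change was positive, with a median of 0.50 against -0.082 over all genes. With DESeq2, 1 member passed, Bcl2l11, where 13.4% of all genes did. With the exact test of edgeR 0 members passed, where 5.78% of all genes did. It gave 4 members an unadjusted p under 0.05, where 6024 of 22517 genes had one. In Mcl1, Bcl2l11 and Pmaip1 all 4 HIE pups lay above all 4 controls, 3 of 10 members, where 9.46% of all genes had such non-overlapping ranges.

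Mcl1 encodes a short-lived anti-apoptotic protein that many myeloid cells depend on (chr3:95566026-95570487, plus strand, in GRCm39). Its levels in the P7 HIE pups were 592, 700, 640 and 587 CPM. The controls were at 266 and 211 CPM in litter P6H63 and at 516 and 557 CPM in litter P6H55. Every HIE pup was above every control, but the distance between the control litters was larger than that between HIE and P6H55. The log2 fold change of HIE against control was 0.70 with a standard error (SE) of 0.33, and the adjusted p was 0.203 (edgeR). Against P6H55 alone it was 0.21 (SE 0.10, adjusted p = 0.324), and against P6H63 alone 1.48 (SE 0.12, adjusted p = 3.6e-05).

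Bcl2 (chr1:106465908-106642060, minus strand) was the only member with a negative log2 fold change. Its levels were 30.3, 30.4, 35.3 and 30.5 CPM in the HIE pups, 48.8 and 52.3 CPM in the P6H63 controls and 36.3 and 33.6 CPM in the P6H55 controls. One HIE pup, at 35.3 CPM, lay between the 2 controls of P6H55, and both P6H63 controls lay above all the others. HIE against control gave a log2 fold change of -0.42, with SE 0.14 (adjusted p = 0.151), against P6H55 alone -0.16 (SE 0.09, adjusted p = 0.401).

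Bcl2l1, whose main protein is the anti-apoptotic BCL-XL (chr2:152622582-152673655, minus strand), was at 105 to 121 CPM in the HIE pups and at 82.7 to 116 CPM in the controls. These ranges overlapped, with a log2 fold change, with its SE, of 0.25 ± 0.14 (adjusted p = 0.258), and of 0.05 ± 0.09 (adjusted p = 0.800) against P6H55 alone.

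Bcl2a1b encodes a copy of A1, an anti-apoptotic protein of myeloid and lymphoid cells whose gene is a known target of NF-kB (chr9:89081262-89089889, plus strand). The mouse genome holds several near-identical copies, and they decide how far its count can be trusted. The coding sequence of Bcl2a1b, 516 bases, differs from that of Bcl2a1d at 6 positions (98.8% identity) and from that of Bcl2a1a at 11 (97.9%). The first 60 coding bases of the 3 copies, from the reference genome GRCm39, are shown because they hold 6 positions at which any of the 3 differ, marked by capitals.

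Bcl2a1a: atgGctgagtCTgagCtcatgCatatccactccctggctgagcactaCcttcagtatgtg
Bcl2a1b: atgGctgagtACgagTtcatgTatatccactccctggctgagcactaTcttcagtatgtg
Bcl2a1d: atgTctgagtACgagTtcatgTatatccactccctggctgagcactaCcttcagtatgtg

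A read that covers none of the differing positions matches several copies, and the counting program divides such reads among them by estimate. The level of Bcl2a1b is therefore given beside the sum of the 3 copies. In the P7 HIE pups Bcl2a1b was at 65.2, 69.4, 66.9 and 44.7 CPM. In the controls it was at 9.88 and 6.03 CPM in P6H63 and at 58.8 and 52.9 CPM in P6H55. It had the widest gap between control litters of all members, 7.02-fold as a ratio of means, and the P6H55 controls lay inside the range of the HIE pups. The log2 fold change of HIE against control was 0.93 (SE 0.69, adjusted p = 0.372), and for the sum of the copies 1.05 (SE 0.68, adjusted p = 0.315). Against P6H55 alone Bcl2a1b had a value of 0.12 (SE 0.17, adjusted p = 0.762). The share of the sum assigned to Bcl2a1b ranged from 30.8 to 56.4% over all 20 pups.

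The region upstream of Bcl2a1b differed in composition from that of Bcl2, the members with the largest positive and the only negative log2 fold change against all 4 P7 controls, neither of which passed the test. Against P6H55 alone Bbc3 had the largest positive value and Bid was negative as well. Both are printed as the 250 bases before the first base of the transcript, on the strand of the gene, from GRCm39. Capitals mark matches to the motifs searched on both strands, which were the TATA box TATAAA, the CCAAT box CCAAT, the E-box CACGTG, the CRE site TGACGTCA, the AP-1 site TGANTCA, the GC box GGGCGG, the ETS site GAGGAAGT of the PU.1 type, the NF-kB site and the CArG box.

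Bcl2a1b, chr9:89081012-89081261, plus strand: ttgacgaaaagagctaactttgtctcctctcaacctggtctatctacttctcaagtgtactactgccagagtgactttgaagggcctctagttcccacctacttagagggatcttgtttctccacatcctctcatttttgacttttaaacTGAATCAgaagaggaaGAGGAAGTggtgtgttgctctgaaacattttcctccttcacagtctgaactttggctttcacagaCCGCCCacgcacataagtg
Bcl2, chr1:106642061-106642310, minus strand: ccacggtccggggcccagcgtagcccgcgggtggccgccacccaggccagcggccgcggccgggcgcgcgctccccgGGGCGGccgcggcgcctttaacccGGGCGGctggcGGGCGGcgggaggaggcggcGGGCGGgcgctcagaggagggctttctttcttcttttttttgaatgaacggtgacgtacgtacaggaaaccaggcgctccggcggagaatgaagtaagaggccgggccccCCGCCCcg

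The Bcl2a1b region was 44.4% G and C, and the Bcl2 region 74.0%. The former holds 1 match to the AP-1 motif, at 100 to 94 bases before the start, 1 to the ETS motif, at 84 to 77 bases before it, and 1 GC box on the other strand. Among 21630 promoters of the same length, 6.19% held the AP-1 motif and 2.09% the ETS motif, and among the 10 members Bcl2a1b alone held either. The Bcl2 region holds 5 matches to the GC box, a motif found in 36.4% of all promoters and in 9 of 10 members (all but Bbc3). No member held the searched motifs of NF-kB, the TATA box, CRE or the CArG box in this window. The CCAAT box was found in 36.5% of promoters and in 2 members (Bcl2l1 and Bcl2l11), and the E-box in 6.29% and in 1 member (Bax). The motifs without a member were found in 1.41 to 11.9% of promoters. No match overlapped another in the printed regions, and a match is a description of the letters and not a site.

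Among the BH3-only genes, Bcl2l11 encodes BIM, which binds every anti-apoptotic member and is regulated by growth factor withdrawal (chr2:127967958-128004476, plus strand). The P7 HIE pups were at 76.0, 74.8, 71.3 and 74.6 CPM. The controls were at 47.7 and 39.3 CPM in P6H63 and at 64.4 and 56.5 CPM in P6H55. Here the HIE pups were close to each other and above both control litters. Its log2 fold change was 0.52 (SE 0.16, unadjusted p = 0.0113, adjusted p = 0.150 with edgeR), and DESeq2 gave 0.54 with an adjusted p of 0.0374. Without the P6H55 control at 64.4 CPM, the highest control, Bcl2l11 passed with edgeR (0.67, adjusted p = 0.0337), where 5588 of 23060 genes passed. That fit kept both P6H63 controls and the other P6H55 control. Against P6H55 alone it was 0.28 (SE 0.07, unadjusted p = 0.00549, adjusted p = 0.204 with edgeR).

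Pmaip1 encodes NOXA, a BH3-only protein that binds MCL1 and A1 (chr18:66591604-66598636, plus strand). Its levels were 45.1, 45.0, 51.7 and 42.0 CPM in the HIE pups. The controls were at 16.2 and 10.1 CPM in P6H63 and at 35.9 and 40.0 CPM in P6H55. All HIE pups lay above all controls, though the lowest of them, at 42.0 CPM, was close to the highest control, at 40.0 CPM. Between HIE and control the log2 fold change was 0.84 (SE 0.42, adjusted p = 0.218) and against P6H55 alone 0.26 (SE 0.10, adjusted p = 0.275).

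Bbc3, which encodes PUMA, a BH3-only protein induced by p53 (chr7:16042318-16052130, plus strand), was the member on which the control litters differed least. It was at 12.3, 14.0, 8.33 and 10.6 CPM in the HIE pups, at 7.35 and 8.24 CPM in P6H63 and at 8.37 and 8.60 CPM in P6H55. The lowest HIE pup, of litter N8, fell among the controls, and the other 3 lay above them. For HIE against control it had a log2 fold change of 0.48 (SE 0.17 and adjusted p = 0.154), with 0.62 (SE 0.20, adjusted p = 0.0316) against P6H63 and 0.40 (SE 0.20, adjusted p = 0.351) against P6H55.

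Bid encodes a BH3-only protein that caspase-8 cleaves to link death receptors to mitochondria (chr6:120862525-120894171, minus strand). The HIE pups were at 19.2, 18.8, 16.9 and 19.4 CPM, the P6H63 controls at 6.13 and 5.04 CPM and the P6H55 controls at 22.9 and 17.5 CPM. The P6H55 controls overlapped with the HIE pups, of which the lowest, at 16.9 CPM, lay below both. The sign depended on the litter: the log2 fold change was 0.52 (SE 0.48, adjusted p = 0.467) against all controls and -0.14 (SE 0.12, adjusted p = 0.587) against P6H55.

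Both effectors differed little. Bax (chr7:45111015-45116325, minus strand) was at 38.1 to 41.3 CPM in the HIE pups, at 30.2 and 30.9 CPM in P6H63 and at 38.1 and 38.4 CPM in P6H55. Bak1 (chr17:27238784-27247983, minus strand) was at 58.5 to 73.0 CPM in the HIE pups, at 45.3 and 50.9 CPM in P6H63 and at 57.1 and 67.7 CPM in P6H55. The HIE and P6H55 ranges met or overlapped in both, and the log2 fold changes were 0.20 (SE 0.12, adjusted p = 0.291) for Bax and 0.26 (SE 0.15, adjusted p = 0.270) for Bak1. Against P6H55 alone they were 0.02 (SE 0.07) for Bax and 0.06 (SE 0.11) for Bak1.

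With the 2 P6H63 controls alone, all 10 members passed the test, 9 higher in HIE and Bcl2 lower, where 58.5% of all genes passed. With the 2 P6H55 controls alone, 0 of 10 passed, where 0.112% of all genes did, and the median log2 fold change was 0.09, against -0.024 over all genes. An unadjusted p under 0.05 was found for 2 members (Bcl2l11 and Pmaip1), where 3838 of 23274 genes had one. These fits share the HIE pups and are not independent. In 7 of 10 members the P6H55 controls overlapped with the HIE pups in CPM, and in Mcl1, Bcl2l11 and Pmaip1 both lay below all 4 HIE pups, 3 of 10 members, where 15.1% of all genes did. With the microglia marker score (the mean log2 CPM of the 9 genes) as a covariate, 0 of 10 members passed, where 19 of 22517 genes did. The median log2 fold change of the members was then 0.01, against -0.027 over all genes. The score was 10.16 to 10.43 in HIE, 6.65 to 7.30 in P6H63 and 9.88 to 10.05 in P6H55. It did not overlap between HIE and control, so the fit compares the groups at no score that both had. It extends a trend set mostly by the difference between the control litters. Whether that trend holds at the scores of the HIE pups was not tested.

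**Figure D2:**
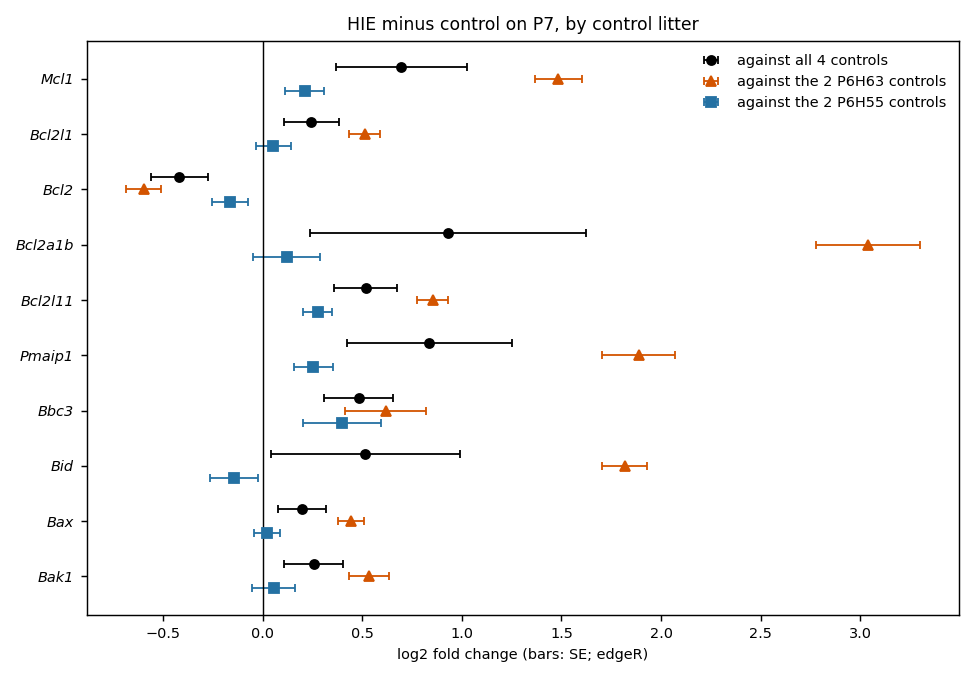
Log2 fold change of HIE against control on P7 for each member, with bars of 1 SE (edgeR), against all 4 controls, the 2 P6H63 controls and the 2 P6H55 controls. Points for P6H63 lie farthest from 0 in all members, up to 3.04 for Bcl2a1b, and points for P6H55 lie between -0.16 for Bcl2 and 0.40 for Bbc3.

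**Figure D3:**
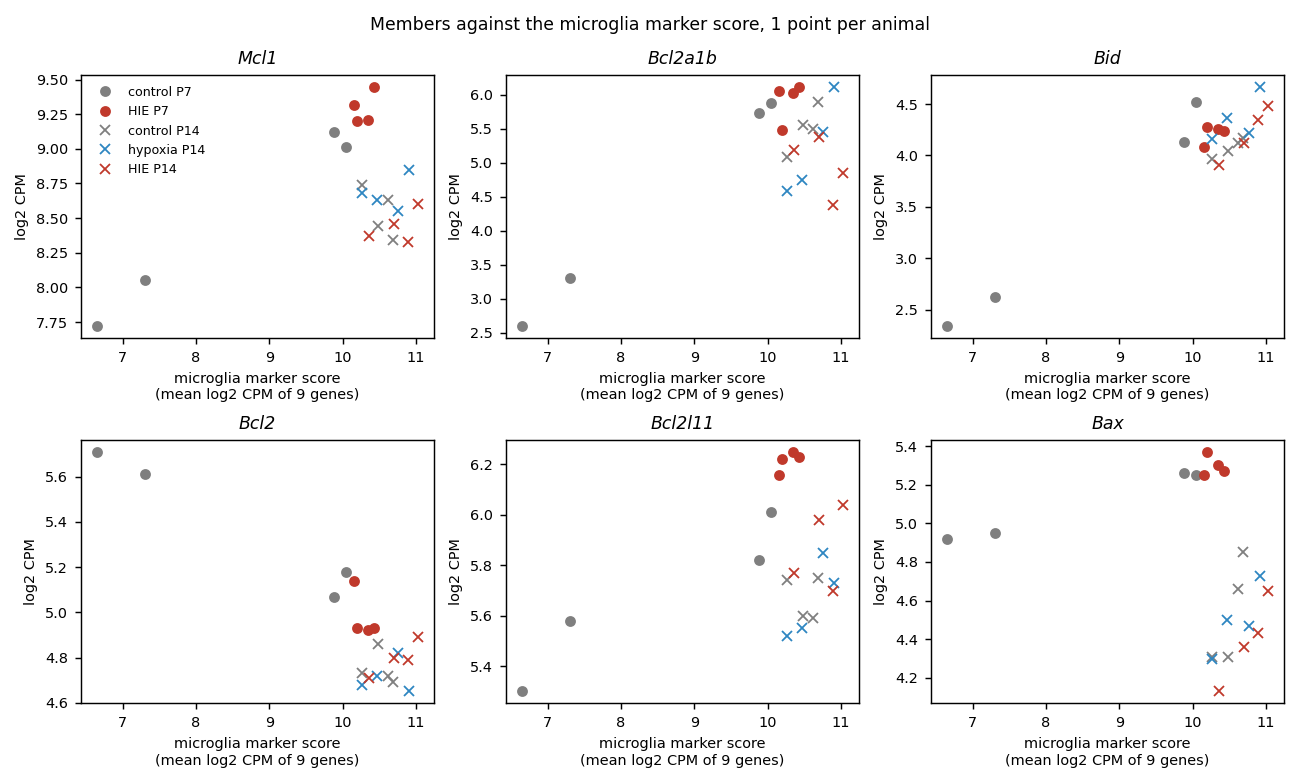
Log2 CPM of 6 members against the microglia marker score, 1 point per pup, circles for P7 and crosses for P14. The 2 pups at scores of 6.65 and 7.30 are the P6H63 controls, which are lowest in Mcl1, Bcl2a1b and Bid and highest in Bcl2, while the other 18 pups lie between 9.88 and 11.03.

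Other genes of the pathway were read from 6 lists of 78 genes, of which 74 were tested. On P7, 0 of 74 passed with edgeR. DESeq2 called 4 higher and 4 lower, beside 13.4% of all genes in that fit, and the exact test 0 higher and 3 lower, beside 5.78%. Against P6H55 alone, 0 of 75 passed with edgeR. The inhibitor of apoptosis (IAP) list, 9 genes whose proteins block caspases or, in the NAIP group, sense bacterial products, had the highest median log2 fold change, 0.87 against -0.08 over all genes, with 0 called. Against P6H55 alone this median was 0.17, where that over all genes was -0.024. Against P6H63 alone it was 1.80, where that over all genes was -0.019, with 8 of 9 called, where 58.5% of all genes were.

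The next comparisons ask whether groups differed on P14, 8 days after hypoxia. Between HIE and control, 0 of 10 members passed, where 0.00478% of all genes did. An unadjusted p under 0.05 was found for 1 member, where 2066 of 20935 genes had one. Between hypoxia and control 0 of 10 passed, where 0.00955% of all genes did, and between HIE and hypoxia 0 of 10, also where 0.00955% did. Members at an unadjusted p under 0.05 were 2 and 1, where 1996 of 20953 and 947 of 20951 genes had one. DESeq2 and the exact test called 0 of 10 in each of these comparisons. Of all genes, DESeq2 called 490 of 20935 between HIE and control, 164 of 20953 between hypoxia and control and 15 of 20951 between HIE and hypoxia. The exact test called 231, 61 and 17 of the same genes, in that order. The ranges of the groups overlapped in all 10 members in all 3 comparisons. The share of all genes with overlapping ranges was not counted on P14, so this overlap only describes the members and does not set them apart.

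The member nearest to a difference between HIE and control was Bcl2a1b. It was at 20.8, 28.8, 36.5 and 41.5 CPM in the HIE pups, at 47.3, 44.9, 59.2 and 33.8 CPM in the controls and at 69.1, 26.8, 24.0 and 43.7 CPM in the hypoxia pups. Values overlapped in all 3 groups, and litters differed within a group: the 2 hypoxia pups of P6H7 had a mean of 56.4 CPM and those of P6H9 25.4 CPM. The log2 fold change of HIE against control was -0.56 (SE 0.23, unadjusted p = 0.0339, adjusted p = 0.440 with edgeR), and for the sum of the copies -0.34 (SE 0.17, adjusted p = 0.556).

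Mcl1 was at 322 to 388 CPM in HIE, 325 to 428 CPM in control and 376 to 460 CPM in hypoxia pups. The log2 fold change of HIE against hypoxia was -0.25 (SE 0.11, unadjusted p = 0.0443, adjusted p = 0.999 with edgeR). Among pups with the name prefix P6H alone it was -0.26 (SE 0.13, unadjusted p = 0.0862 with edgeR). Bbc3 and Pmaip1 were the members with an unadjusted p under 0.05 between hypoxia and control. Bbc3 had a log2 fold change, with its SE, of -0.52 ± 0.23 (adjusted p = 0.525) and Pmaip1 of -0.32 (SE 0.14, adjusted p = 0.525). All hypoxia pups carried the name prefix P6H, while the HIE and control groups held pups of P4H and of P6H. Among P6H pups alone, Bbc3 was at -0.25 (SE 0.27, unadjusted p = 0.385 with edgeR) between hypoxia and control. Pmaip1 was there at -0.27 (SE 0.20, unadjusted p = 0.213 with edgeR). Bcl2 varied least, from 25.1 to 29.6 CPM over all 12 pups of P14, with a log2 fold change of HIE against control of 0.02 (SE 0.09). Bcl2l11 was at 58.9 ± 6.61 CPM in HIE and 50.9 ± 2.97 CPM in control pups (SD, n = 4 each), a log2 fold change, with its SE, of 0.18 ± 0.10 (adjusted p = 0.610). Of the 74 other pathway genes tested, 0 passed in each of the P14 comparisons with edgeR. DESeq2 called 1 lower in HIE than in control, where 383 of 20935 genes were lower and 490 passed in either direction. It called 0 pathway genes in the other comparisons, where 164 of 20953 and 15 of 20951 genes passed.

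The comparison of days asks how the members differed between P7 and P14 within HIE and within control pups. Since day and batch coincide, a difference of days is also one of batches. In HIE, 8 of 10 members were lower on P14, where 23.2% of all genes were lower and 46.0% passed in either direction. The median log2 fold change of the members was -0.85, against 0.02 over all genes. In 9 of 10 members, all but Bid, every P14 HIE pup lay below every P7 HIE pup in CPM, where 24.1% of all genes did. Marker sums of other cells moved between the same pups. Oligodendrocyte lineage genes (8) were at 320 to 450 CPM on P7 and 801 to 2380 CPM on P14, and erythroid genes (5) at 17.3 to 35.4 and 125 to 417 CPM. Neutrophil and monocyte genes (8) were at 33.8 to 104 and 72.7 to 278 CPM, mural genes (5) at 398 to 531 and 736 to 1170 CPM, and microglia genes at 16600 to 19000 and 19000 to 29700 CPM. Astrocyte genes (7) were at 1350 to 1790 and 2270 to 3270 CPM. Border macrophage genes (6) went the other way, at 1880 to 3090 and 1340 to 1920 CPM. The neutrophil and border macrophage ranges overlapped between the days. The part of these cell types in the day difference was not tested.

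Pmaip1 fell most, from 45.9 ± 4.07 CPM on P7 to 15.5 ± 3.14 CPM on P14 (SD, n = 4 each), with P14 pups at 12.9, 19.8, 15.9 and 13.6 CPM. The log2 fold change was -1.54 (SE 0.14, adjusted p = 2e-05, edgeR). Bak1 fell from 65.7 ± 6.06 to 28.8 ± 5.10 CPM (SD, n = 4 each), a log2 fold change, with its SE, of -1.17 ± 0.12 (adjusted p = 5.1e-05 with edgeR), and Bax from 39.3 ± 1.39 to 21.2 ± 3.15 CPM, a log2 fold change of -0.87 (SE 0.10). Both effectors thus fell together with the BH3-only gene Bbc3 (log2 fold change -1.07, SE 0.18, adjusted p = 0.000964).

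Anti-apoptotic genes fell as well as pro-apoptotic ones. Mcl1 went from 630 ± 52.4 to 348 ± 29.7 CPM (SD, n = 4 each), with a log2 fold change, with its SE, of -0.83 ± 0.10 (adjusted p = 0.000112 with edgeR). Bcl2a1b had a log2 fold change, with its SE, of -0.92 ± 0.21 (adjusted p = 0.00549), and for the sum of the copies it was -0.54 (SE 0.11, adjusted p = 0.00298). Bcl2l1 (-0.41, SE 0.10) and the BH3-only gene Bcl2l11 (-0.31, SE 0.09) passed with the smallest log2 fold changes. Bcl2 (-0.16, SE 0.08, adjusted p = 0.130) and Bid (0.03, SE 0.12, adjusted p = 0.842) did not pass. Bid was at 18.6 ± 1.13 CPM on P7 and 18.7 ± 3.18 CPM on P14 (SD, n = 4 each). Among pups labelled male alone, 2 on P14 against 4 on P7, the count was again 8 of 10, a setting added after seeing the data. There 4374 of 23601 genes were lower and 8500 passed in either direction.

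In controls, 2 of 10 members were lower on P14, where 17.4% of all genes were lower and 33.0% passed in either direction. Bak1 fell from 55.3 ± 9.64 to 27.7 ± 3.09 CPM (SD, n = 4 each; log2 fold change -0.92, SE 0.16, adjusted p = 0.00479 with edgeR). Bcl2 fell from 42.7 ± 9.19 to 27.0 ± 1.42 CPM (SD, n = 4 each; log2 fold change -0.57, SE 0.15, adjusted p = 0.0196 with edgeR). For Bax the log2 fold change was -0.48 (SE 0.17, adjusted p = 0.0614). It passed with DESeq2 (adjusted p = 0.0357), where 9562 of 22320 genes did. It also passed without the P14 control P4H4-7F (-0.62, adjusted p = 0.0425 with edgeR), where 5495 of 24011 genes did. In these 3 members every P14 control lay below every P7 control, where 21.2% of all genes did.

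Without litter P6H63, 4 of 10 members were lower in P14 controls, where 16.2% of all genes were. They were Bak1 (-1.13, SE 0.13), Pmaip1 (-0.98, SE 0.12), Bax (-0.66, SE 0.17) and Mcl1 (-0.48, SE 0.14), with adjusted p from 0.00114 to 0.0313 (edgeR). Bcl2 was then at -0.33 (SE 0.11, adjusted p = 0.0530), so its fall among controls passed only with the pups that carried few microglia markers. All 10 log2 fold changes were then negative, the sign seen in 9 of 10 members among HIE pups. Bak1 passed in HIE pups, in all controls and without P6H63, and Bax, Pmaip1 and Mcl1 passed in HIE pups and without P6H63.

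**Figure D4:**
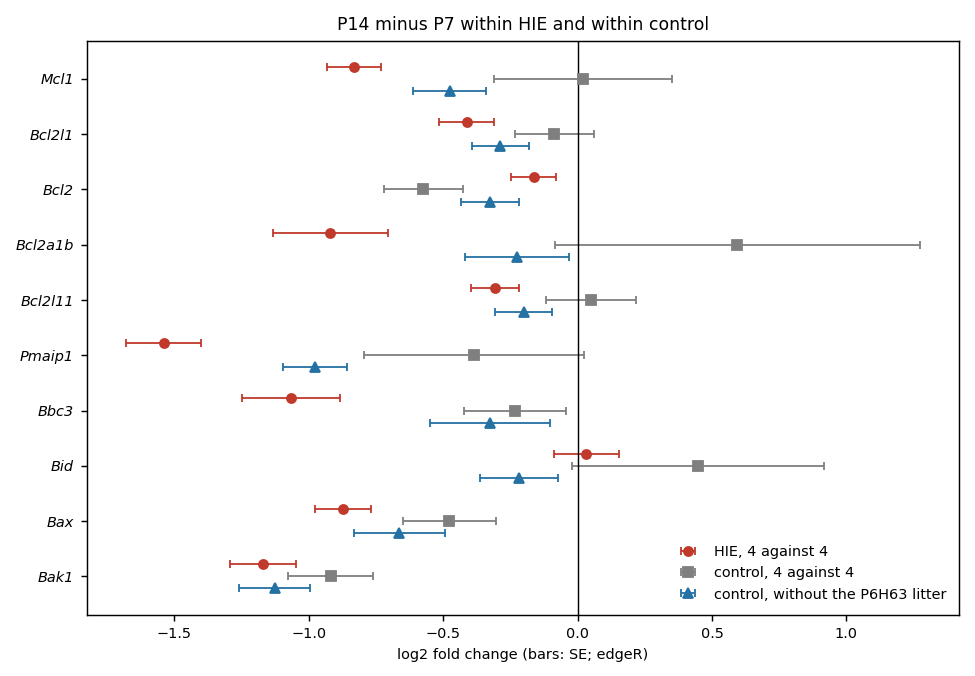
Log2 fold change of P14 against P7 for each member within HIE, within control and within control without litter P6H63, with bars of 1 SE (edgeR). Bak1 lies between -1.17 and -0.92 in all 3 fits, while the control values of Bcl2a1b move from 0.59 to -0.22 when P6H63 is left out.

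Immediate early genes, which respond within minutes to stimulation or tissue dissociation, moved with the same difference. The sum of 10 of them (Fos, Jun and others) was 17800 to 19800 CPM in P7 HIE pups, 16400 to 17100 CPM in P6H55, 5300 to 6740 CPM in P6H63 and 5610 to 12300 CPM in the 12 P14 pups. With the mean log2 CPM of these genes as a covariate, a setting added after seeing the data, 0 of 10 members passed between the days in HIE, where 2.32% of all genes did. The member with an unadjusted p under 0.05 was Pmaip1 (-0.87, SE 0.34, adjusted p = 0.214). In controls 6 of 10 passed with it, 3 lower (Bcl2, Bax and Bak1) and 3 higher (Bid, Mcl1 and Bcl2a1b), where 59.9% of all genes did. In HIE this covariate did not overlap between the days in its summed level. Its part in the day difference was not tested.

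The test of the difference itself, the HIE effect on P14 minus that on P7, called 0 of 10 members, where 0.00405% of all genes passed. Of all 24694 genes, 3432 had an unadjusted p under 0.05, and 4 members did. These were Bbc3 (-0.80, SE 0.27, adjusted p = 0.214), Bcl2 (0.45, SE 0.17, adjusted p = 0.265), Pmaip1 (-1.12, SE 0.45, adjusted p = 0.297) and Mcl1 (-0.82, SE 0.36, adjusted p = 0.330). DESeq2 called 0 of 10, where it called 673 of 24694 genes, with 5 members at an unadjusted p under 0.05, where 3883 of 24694 genes were. Without P6H63, added after seeing the data, 0 of 10 members and 0 of 25848 genes passed with edgeR, and 2245 of 25848 genes had an unadjusted p under 0.05. Of the members 3 did, Pmaip1 at -0.55 (SE 0.19), Bbc3 at -0.72 (SE 0.30) and Mcl1 at -0.34 (SE 0.16).

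Of the 74 other pathway genes tested between the days, 8 were higher and 30 lower on P14 in HIE, where 22.8% of all genes were higher and 23.2% lower. In controls 7 were higher and 21 lower, where 15.6% of all genes were higher and 17.4% lower. Without P6H63 the control counts were 8 higher and 21 lower, where 15.0% and 16.2% of all genes were. In the list of 13 tested other BCL2 family genes, 2 rose and 3 fell in each comparison, and in controls without P6H63 1 rose (Bmf) and 0 fell. Bmf, a further BH3-only gene, rose in both, with a log2 fold change of 0.75 (SE 0.13) in HIE and 1.19 (SE 0.35, adjusted p = 0.0322) in controls (0.66, SE 0.16, without P6H63), and was at 125 ± 22.0 CPM in P14 HIE pups against 75.3 ± 8.31 CPM on P7 (SD, n = 4 each). It thus moved against Pmaip1 and Bbc3. Bok, an effector relative, fell in controls (-1.55, SE 0.40, adjusted p = 0.0203), a call lost without P6H63 (-0.68, SE 0.26, adjusted p = 0.0812). Bcl2l15, at 0.0712 ± 0.0443 CPM on P7 and 0.561 ± 0.346 CPM on P14 in HIE (SD, n = 4 each), rose by 2.96 (SE 0.61). Its P7 level was near the level of 3 counts, 0.0359 to 0.0427 CPM on that day. In controls without P6H63 it did not pass (2.50, SE 0.87, adjusted p = 0.0599 with edgeR). Bcl2l12 (-0.82, SE 0.12) and Bnip3 (-0.46, SE 0.12), a hypoxia-induced gene of mitophagy, fell in HIE. In controls without P6H63 neither passed with edgeR (Bcl2l12 at -0.65, SE 0.22, adjusted p = 0.0553, and Bnip3 at -0.24, SE 0.14, adjusted p = 0.228).

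In the list of 14 apoptosome and caspase genes, 1 rose and 8 fell in HIE, 4 fell in controls, and 1 rose and 4 fell in controls without P6H63. Casp6, which encodes a caspase (-0.91, SE 0.12, adjusted p = 0.00135), fell in controls, as did Endog, a mitochondrial nuclease (-1.33, SE 0.32, adjusted p = 0.0164, and -0.64, SE 0.20, without P6H63). Diablo, whose protein blocks IAPs, rose in HIE, by 0.22 ± 0.08 (SE) on the log2 scale (adjusted p = 0.0403). In controls without P6H63 it rose as well (0.46, SE 0.15, adjusted p = 0.0474 with edgeR).

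In the IAP list of 9 genes, 2 rose and 2 fell in HIE and 2 rose and 1 fell in controls, with and without P6H63. The gene that fell furthest, Birc5 (survivin), which also serves cell division, went from 23.6 ± 1.51 to 4.76 ± 0.471 CPM in HIE (SD, n = 4 each; log2 fold change -2.29, SE 0.11, adjusted p = 4e-07 with edgeR). In controls without P6H63, Birc5 fell as well (-2.38, SE 0.35, adjusted p = 0.00267 with edgeR). Naip2 fell in HIE (-0.25, SE 0.08) but did not pass in those controls (0.13, SE 0.18, adjusted p = 0.598 with edgeR). Birc6 (0.55, SE 0.15) and Birc2 (0.42, SE 0.11) rose in controls.

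In the list of 16 p53 and BH3-only inducer genes, 1 rose and 7 fell in HIE, and 1 rose and 6 fell in controls, with and without P6H63. Cdkn1a, the p53 target p21, went from 89.7 ± 6.24 to 17.2 ± 1.80 CPM in HIE (SD, n = 4 each; log2 fold change -2.35, SE 0.10, adjusted p = 2.3e-07 with edgeR). E2f1, a driver of S phase that can induce BH3-only genes, had a log2 fold change of -2.43 (SE 0.11) in HIE. In controls without P6H63 both fell as well (edgeR), Cdkn1a at -1.63 (SE 0.18, adjusted p = 0.000807) and E2f1 at -2.27 (SE 0.16, adjusted p = 0.000275). Trib3 fell in controls (-1.77, SE 0.35). Perp, a p53 effector of the cell membrane, rose in HIE (0.69, SE 0.14). It did not pass in controls without P6H63 (-0.23, SE 0.16, adjusted p = 0.292 with edgeR). Mdm4, an inhibitor of p53, rose in controls (0.53, SE 0.17, adjusted p = 0.0453), a call lost without P6H63 (0.32, SE 0.14, adjusted p = 0.113).

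In the list of 10 tested death receptor genes, 5 fell in HIE and 3 in controls, and 0 rose. In controls without P6H63, 1 rose (Fas) and 5 fell. Tnf, the ligand of the TNF receptors, had the largest change in this list, from 199 ± 45.9 to 23.3 ± 14.7 CPM in HIE (SD, n = 4 each; log2 fold change -3.07, SE 0.40, adjusted p = 0.000198 with edgeR). It fell as well in controls without P6H63 (-2.45, SE 0.29, adjusted p = 0.00114 with edgeR). The TRAIL receptor Tnfrsf10b fell in controls from 5.84 ± 2.78 to 1.36 ± 0.308 CPM (SD, n = 4 each; adjusted p = 0.00628 with edgeR), and its ligand Tnfsf10 fell too (-1.33, SE 0.37), a call lost without P6H63 (-0.45, SE 0.17, adjusted p = 0.0796). Tnfrsf10b then had a log2 fold change of -1.29 (SE 0.28). Fas, a death receptor, was named after its values were seen (1.12, SE 0.33, adjusted p = 0.0355 without P6H63).

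In the list of 12 genes for MCL1 turnover and mitochondrial partners, 2 rose and 5 fell in HIE, 2 rose and 4 fell in controls, and 2 rose and 5 fell in controls without P6H63. Fbxw7, a ubiquitin ligase subunit that targets MCL1 (0.54, SE 0.12), and Usp9x, a deubiquitinase that stabilises it (0.45, SE 0.13), both rose in controls. Pim1, a survival kinase (-1.70, SE 0.20), Dynll2, a dynein light chain that holds BMF (-1.35, SE 0.18), and Bag3, a co-chaperone (-0.96, SE 0.10), fell in HIE. All of them fell as well in controls without P6H63, Pim1 at -1.14 (SE 0.26), Dynll2 at -0.73 (SE 0.14) and Bag3 at -1.06 (SE 0.12). Their adjusted p was from 0.00104 to 0.0145 (edgeR).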

How the data were processed

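CD11b+ cells of 20 CF-1 pups were profiled in 22 stranded total RNA libraries. The authors aligned reads to GRCm39 with STAR, and RSEM gave the deposited expected counts of genes, unscaled, in a table per day. In each library 84.2 to 88.0% of values were whole. Expected counts were rounded, and libraries of 1 animal were summed (2 P14 HIE pups had 2 each). Of 56691 gene identifiers, 56017 matched GENCODE M39 and 674 did not.

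Comparisons used only the groups compared, with the quasi-likelihood test of edgeR 4.0.16 (R 4.3.3), its default fit, filter on low counts and TMM scaling, Benjamini-Hochberg adjustment and a threshold of 0.05. The study names edgeR and DESeq2 but not the type of edgeR test. Levels are CPM with TMM factors over all 20 animals, and log2 CPM used a prior count of 2. CPM per kb used the length of the canonical transcript. A level of 3 counts, 0.0359 to 0.0427 CPM on P7 and 0.0646 to 0.101 CPM on P14 per animal or library, was taken as the floor, which all 10 members exceeded. P-values measure the spread between pups, which share litters. The procedures were tested on simulated counts.

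Alternatives were DESeq2 1.42.0, the exact test of edgeR, other scaling, no filter, sex labels, control litters, covariates and leaving out each animal. Members, lists and tests were chosen with earlier results of these data known. All 10 members are named, and of each pathway list the genes called in a comparison, up to 3 per direction by size. A gene that this rule names is not reported here. Proteins and the sequence of Pmaip1 are not given. Marker and pathway symbols were matched in the annotation, except Fcrls. Promoters and coding sequences were read from GRCm39 with GENCODE M39.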

Additional observations from a re-analysis of the deposited data

Results flagged for a closer look

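Among 50 sets of 4 pups (10 members in 5 groups), 2 held a pup far from the other 3, by a gap above the critical value of Dixon's test for 4 samples. Chance flags about 1 in 20 such sets. For Bcl2 in the P7 HIE group, pup N8-3 was at 35.3 CPM and the other 3 at 30.3, 30.4 and 30.5 CPM. For Bcl2a1b in the same group, pup N8-4 was at 44.7 CPM and the other 3 at 65.2, 66.9 and 69.4 CPM. The 2 values belong to different pups of litter N8.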

How the results depend on the processing

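Across 1200 values of members under alternatives, 1114 kept direction and side of the threshold. Counts of called members kept within 1.5 times in 114 of 120. For HIE against control on P7, the count rose from 0 to 1 with DESeq2 and to 10 against the P6H63 controls, and leaving out 1 animal gave 0 to 1, the 1 (Bcl2l11) without P6H55-7, where 5588 of 23060 genes passed. For P14 against P7 it was 4 without P6H63 and 6 with the immediate early score in controls, 2 to 3 leaving out 1 animal, and in HIE 0 with that score and 8 without any 1 animal. The immediate early score and the summed copies were added after seeing the data, as were the male animals of HIE between the days and the interaction without P6H63. The cause of these changes was not tested.

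The log2 fold changes that changed sign were mostly small. On P7 these were Bid at -0.142 against P6H55 and, with the microglia score, Bax at -0.022, Bid at -0.345 and Bcl2a1b at -0.209. For P14 HIE against control, Bcl2 was -0.024 and Bak1 -0.013 by library size alone. Among P6H animals, Mcl1 was -0.048 and Bcl2a1b 0.008 for hypoxia against control, and Pmaip1 -0.048 for HIE against hypoxia. For the latter comparison Pmaip1 was -0.008 by library size and -0.001 with the first library of each animal. Between the days in controls, Mcl1 was -0.003 with DESeq2, -0.003 with the scaling of DESeq2, -0.132 by library size, -0.028 without a filter and -0.475 without P6H63. Bcl2l11 was -0.139 by library size and -0.200 without P6H63, where Bid was -0.218 and Bcl2a1b -0.224. With the immediate early score, Bcl2l1 was 0.010 and Pmaip1 0.170 in controls, and Bcl2l1 0.137, Bcl2l11 0.174 and Bcl2 0.005 in HIE. Bid was -0.001 by library size in HIE, and 0.269 in the difference of HIE effects without P6H63.

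Leaving out 1 animal at a time, log2 fold changes that changed sign ran over these ranges. For P14 HIE against control they ran from -0.133 to 0.026 for Bcl2l1, from -0.003 to 0.051 for Bcl2 and from -0.071 to 0.107 for Bak1. For hypoxia against control they ran from -0.156 to 0.037 for Bax, from -0.110 to 0.046 for Bcl2l1, from -0.102 to 0.004 for Bcl2l11 and from -0.013 to 0.146 for Bak1. For HIE against hypoxia they ran from -0.131 to 0.027 for Bcl2l1, from -0.117 to 0.135 for Pmaip1, from -0.150 to 0.041 for Bak1 and from -0.555 to 0.014 for Bcl2a1b. Between the days they ran from -0.199 to 0.022 for Bcl2l1, from -0.097 to 0.177 for Bcl2l11 and from -0.218 to 0.240 for Mcl1 in controls, and from -0.057 to 0.125 for Bid in HIE.

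By library size alone the median of all genes on P7 was -0.285 against -0.082 with TMM, a shift that all members shared. All members lay above the floor of 3 counts in every pup, which does not measure how precisely they were counted. Between the 2 libraries of a pup, members differed in log2 CPM by a median of 0.05 in P4H1-6F and 0.055 in P6H12-11M. The largest difference was 0.44, for Bbc3 in P6H12-11M, at 5.10 and 6.92 CPM by library size. The part of depth in these values was not tested. Groups of 4 pups from 2 litters, and 2 control pups with few microglia markers, limit the P7 comparison. No paired analysis was possible because no label pairs single animals across groups, and each litter holds 1 treatment. On P14 the HIE and control groups each held 2 pups with the name prefix P4H and 2 with P6H, and with that prefix as a covariate 0 of 10 members and 2 of 20935 genes passed. All hypoxia pups carried P6H, and among P6H pups alone 0 of 10 members passed in either comparison with them. Of all genes, 0 of 22026 then passed between hypoxia and control and 3 of 22064 between HIE and hypoxia.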
